A study of Mus musculus with 24 samples.

Results

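The Cyp2b cytochromes of mouse liver, taken here as Cyp2b9, Cyp2b10 and Cyp2b13, were followed over lean and obese livers of mice that had received 1 of 3 antisense oligonucleotides. The 3 genes were chosen by their symbols, with earlier results of these data known, and all of their rows were kept. They gave 6 features (assembled transcripts), of 69905 features and 48968 gene symbols in all, with 2 features for Cyp2b9, 3 for Cyp2b10 and 1 for Cyp2b13.

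Cytochromes P450 of the 2B subfamily are haem enzymes of the endoplasmic reticulum that oxidise drugs, steroids and fatty acids. Their transcription in hepatocytes is known for its response to the constitutive androstane receptor (CAR, encoded by Nr1i3) and the pregnane X receptor (PXR, encoded by Nr1i2), which pair with the retinoid X receptor on enhancers of target genes. Cyp2b10 is the classical gene induced by phenobarbital in mouse liver. Cyp2b9 and Cyp2b13 are known as female-predominant genes, which the pulsatile growth hormone pattern of males keeps low.

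Total RNA depleted of rRNA was sequenced from livers of wt C57BL/6 mice that were 18 weeks old by their labels. By the labels all mice had been injected for 12 weeks with locked nucleic acids (LNA), modified oligonucleotides that lower a transcript they pair with, so that no uninjected mouse serves as a reference. The 4 groups used each held 4 livers. They were Scr LNA on a control diet (NCD, with fat, carbohydrate and protein giving 11%, 62% and 27% of the energy), Scr LNA on a high-fat diet (HFD, with 54%, 22% and 24%), Mafg LNA on HFD and LincIRS2 LNA on NCD. Scr LNA is a negative control oligonucleotide, Mafg encodes a small MAF transcription factor, and LincIRS2 (4833411C07Rik) is a long non-coding RNA. A further 2 groups of 4 livers, Mafg LNA on NCD and LincIRS2 LNA on HFD, were not analysed here. The study describes male C57BL/6N mice, gives an older age and longer LNA treatment than the labels, and states that LNA-injected mice received saline or insulin at random before tissue was taken, which the labels do not give per liver.

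The tables hold 1 FPKM value (fragments scaled to the length of the transcript and to the number of mapped fragments) per feature and group, which the authors pooled from the livers of that group. There is therefore no spread between livers for any value below, no difference could be set against it, and no test was run. The depth is unknown, since the tables hold no counts. A feature is not the whole gene. Alb, the most abundant hepatocyte transcript, was listed at 0 in 3 groups and at 2663 FPKM with LincIRS2 LNA, and Ttr, another plasma protein gene of hepatocytes, lay between 0.0168 and 0.0403 FPKM in the 4 groups. Of the other hepatocyte markers Apoa1 lay between 581 and 1499 FPKM and Fgb between 180 and 374 FPKM. Features with no Ensembl match took 90.4% to 93.6% of the summed FPKM of a group. The series of feature numbers also places 60.5% of the compared features on the strand opposite their gene, and 60.9% of those on chromosome 7. Both features of Cyp2b9 and 2 of 3 of Cyp2b10 were among them, while Cyp2b13 and the remaining feature of Cyp2b10 lay on the strand of their gene. Levels of the 3 genes are thus levels of these features, and a value of 0 or near 0 need not mean that a transcript was absent.

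The oligonucleotides used as LNA are shown because 2 of the comparisons are between them. They are printed 5′ to 3′, with capitals for the first stretch whose exact complement lies in the spliced transcripts of all 3 Cyp2b genes at the greatest length found.
Scr LNA: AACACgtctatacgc
Mafg LNA: gtcTTGGACTTTacta
LincIRS2 LNA: ctcgattaACCTGATa
The full complement of the 16-base Mafg LNA was found only in transcripts of Mafg, that of the 16-base LincIRS2 LNA only in 4833411C07Rik, and that of the 15-base Scr LNA in no transcript of the GENCODE annotation. The longest complementary run in Cyp2b9, Cyp2b10 and Cyp2b13 was 9 bases for Mafg LNA, which 9% of 21877 protein-coding genes match over at least 1 run of that length, 7 bases for LincIRS2 LNA (49.9% of genes) and 5 bases for Scr LNA (98.4%). The level of Mafg itself was not analysed here. The feature of 4833411C07Rik was at 0.558 FPKM with Scr LNA on NCD, 0.345 with LincIRS2 LNA on NCD, 0.212 with Scr LNA on HFD and 0.483 with Mafg LNA on HFD.

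The 3 genes lie on the plus strand of chromosome 7 of GRCm38 in a cluster of Cyp2 genes. Cyp2b10 (ENSMUSG00000030483) spans chr7:25897620-25926624, Cyp2b13 (ENSMUSG00000040583) chr7:26061497-26096197 and Cyp2b9 (ENSMUSG00000040660) chr7:26173411-26210661. Bases just upstream of each gene, from RefSeq on GRCm38.p6 and on the plus strand, are shown because the members had their highest level in the same group in the values that follow. Capitals mark the bases in which Cyp2b9 and Cyp2b13 differ from each other and, for Cyp2b10, the bases that differ from Cyp2b9 in a pairwise alignment.
Cyp2b9, chr7:26173159-26173408: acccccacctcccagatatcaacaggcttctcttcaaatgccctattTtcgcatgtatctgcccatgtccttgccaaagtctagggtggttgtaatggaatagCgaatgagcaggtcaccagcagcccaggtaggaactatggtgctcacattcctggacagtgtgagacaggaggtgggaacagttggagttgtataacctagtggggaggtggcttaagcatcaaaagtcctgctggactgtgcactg
Cyp2b13, chr7:26061245-26061494: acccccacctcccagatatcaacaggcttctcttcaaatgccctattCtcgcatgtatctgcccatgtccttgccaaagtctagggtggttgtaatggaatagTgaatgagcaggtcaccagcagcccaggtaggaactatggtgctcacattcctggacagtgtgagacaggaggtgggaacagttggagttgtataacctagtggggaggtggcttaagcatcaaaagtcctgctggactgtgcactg
Cyp2b10, chr7:25897408-25897619: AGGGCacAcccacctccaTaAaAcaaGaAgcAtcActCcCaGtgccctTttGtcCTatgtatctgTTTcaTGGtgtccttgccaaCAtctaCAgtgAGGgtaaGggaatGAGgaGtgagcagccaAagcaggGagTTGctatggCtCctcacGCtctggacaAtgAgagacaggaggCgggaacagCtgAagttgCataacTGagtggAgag
Cyp2b9 and Cyp2b13 were identical at 248 of 250 bases (99.2%). Cyp2b10 was identical to either at 156 of 260 aligned columns (60%), with 46 mismatches and 58 columns of gap. Its window held 212 bases and the others 250, so part of these gap columns, which lower the 60%, comes from unequal window length. The 3 windows were searched on both strands for the letters AGGTCA (a motif of nuclear receptors), TGACNNNGC (the core of small MAF elements) and TTCNNNGAA (a STAT element). AGGTCA was present 1 time in Cyp2b9 and 1 time in Cyp2b13, starting 138 bases before the end of the window in both, and not in the 212 bases of Cyp2b10. Of 32851 RefSeq windows of 250 bases, 14.0% hold AGGTCA, 10.2% hold TGACNNNGC and 7.02% hold TTCNNNGAA, and the latter 2 were found in no Cyp2b window. The known phenobarbital-responsive enhancer of Cyp2b10 lies farther upstream than these windows.

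Coding sequences were compared because near-identical genes can share reads. Cyp2b9 and Cyp2b13 were 92.7% identical over 1473 coding bases, with 107 mismatches and no gap, Cyp2b10 and Cyp2b13 were 88.7% identical, and Cyp2b9 and Cyp2b10 87.8%. The stretch of 76 bases (the length of a read) in which Cyp2b9 and Cyp2b13 differ most, coding bases 1051 to 1126 in the transcripts of the GENCODE annotation, is shown with capitals for the bases that differ from Cyp2b9 (for Cyp2b9 itself, from Cyp2b13).
Cyp2b9: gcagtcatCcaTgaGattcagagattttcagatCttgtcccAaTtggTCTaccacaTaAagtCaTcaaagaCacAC
Cyp2b13: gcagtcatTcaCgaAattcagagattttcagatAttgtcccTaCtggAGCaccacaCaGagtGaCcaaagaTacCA
Cyp2b10: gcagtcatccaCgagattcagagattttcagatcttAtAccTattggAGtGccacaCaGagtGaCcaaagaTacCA
Here Cyp2b13 differed from Cyp2b9 at 16 bases and Cyp2b10 at 14. Of all 76-base windows of the Cyp2b9 transcript, 5.0% (90 of 1801) were also present without change in Cyp2b13 and none in Cyp2b10, while 33 windows were shared by Cyp2b10 and Cyp2b13. The Cyp2b9 and Cyp2b13 features were assembled in 1 common locus of the files, chr7:25981502-26226698, which holds both genes, and the exons of a feature were not given. How reads were divided between these 2 genes was not tested.

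Cyp2b9 had the highest features of the 3 genes in every group, both of them on the strand opposite the gene. Its second feature stood at 0.0935 FPKM with Scr LNA on NCD, 7.76 with Scr LNA on HFD, 0.447 with Mafg LNA on HFD and 0.469 with LincIRS2 LNA on NCD. Its first feature had 0.0896, 4.59, 0.302 and 0.417 FPKM in the same order. Both features thus had their lowest level in lean control liver and their highest in obese control liver, with the other groups in between. Mafg LNA on HFD and LincIRS2 LNA on NCD were close together, at a ratio of 1.05 for the second feature and 1.38 for the first, and with no spread between livers their order cannot be judged.

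The leading feature of Cyp2b10 had the same order of groups at a lower level. This most abundant feature, the third, stood at 0.0516 FPKM with Scr LNA on NCD, 0.961 with Scr LNA on HFD, 0.0835 with Mafg LNA on HFD and 0.292 with LincIRS2 LNA on NCD. Its second feature had 0.00478, 0.104, 0.0281 and 0.0118 FPKM, so that here LincIRS2 LNA lay below Mafg LNA. The first, which alone lies on the strand of the gene, had 0.0575 FPKM with Scr LNA on HFD and 0.00577 with LincIRS2 LNA, and was next to 0 (7.08e-06 and 3.53e-06 FPKM) in the remaining 2 groups. All 3 features of Cyp2b10 were highest in obese control liver and the order of the other groups differed between them.

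Cyp2b13 had the lowest summed level of the 3. Its only feature, on the strand of the gene, stood at 0.00382 FPKM with Scr LNA on NCD, 0.337 with Scr LNA on HFD, 0.0189 with Mafg LNA on HFD and 0.00406 with LincIRS2 LNA on NCD. On that strand Cyp2b13 exceeded the only Cyp2b10 feature in 3 of the 4 groups. Unlike the leading features of Cyp2b9 and Cyp2b10, it had about the same level with LincIRS2 LNA as with Scr LNA on NCD. This feature had a mean of 0.0910 FPKM over the 4 groups, under the 0.1 FPKM asked of a compared feature, and 3 of the 6 features (2 of Cyp2b9 and 1 of Cyp2b10) passed that filter.

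**Figure D1:**
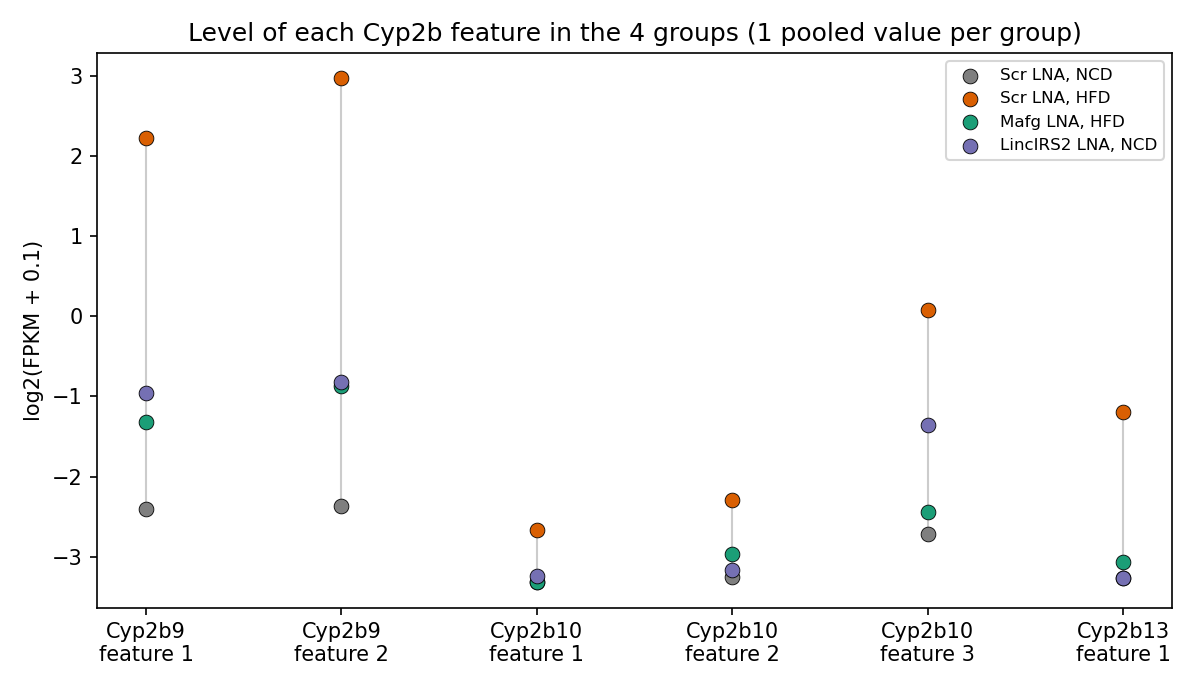
Level of each of the 6 Cyp2b features as log2(FPKM + 0.1) on the y axis, with 1 point for the pooled value of each group and a grey line from the lowest to the highest group. Scr LNA on HFD is the highest point of all 6 features, and the second feature of Cyp2b9 reaches 7.76 FPKM there.

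Summed over their features, the 3 genes had 0.243 FPKM with Scr LNA on NCD, 13.8 with Scr LNA on HFD, 0.880 with Mafg LNA on HFD and 1.20 with LincIRS2 LNA on NCD. These sums mix features of both strands. Cyp2b9 made up 75.3%, 89.4%, 85.2% and 73.9% of these sums. Cyp2b10 held 23.2%, 8.14%, 12.7% and 25.8%, and Cyp2b13 held 1.57%, 2.44%, 2.15% and 0.339%. Cyp2b9 thus took its larger shares in the HFD groups and Cyp2b10 in the NCD groups.

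The comparison of HFD with NCD under Scr LNA asks how the diet moved these genes. The second feature of Cyp2b9 was 82.9 times as high on HFD as on NCD, the third feature of Cyp2b10 was 18.6 times as high and Cyp2b13, from a level next to 0, was 88.2 times as high. On the log2(FPKM + 0.1) scale, which understates the change of low features, the differences were 5.34, 2.81 and 2.08. With a pseudocount of 1 FPKM those of Cyp2b10 and Cyp2b13 were 0.90 and 0.41, under 2-fold. The first feature of Cyp2b9 was 51.2 times as high, with a log2 difference of 4.63. A gene was counted as past 2-fold when the log2 difference of its most abundant feature was at least 1, among 13194 genes with a mean of at least 0.1 FPKM. Past that fold, 3% of genes were higher and 3.09% were lower on HFD. Both Cyp2b genes that passed the filter were higher, with 11 genes above Cyp2b9 and 47 above Cyp2b10 in log2 difference, and nothing is read from this count, since the members were chosen with it known.

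Mafg LNA was set against Scr LNA in obese liver to ask what an LNA directed at Mafg did on HFD, without a check here that Mafg was lower. The second feature of Cyp2b9 was 17.3 times lower with Mafg LNA, the third feature of Cyp2b10 was 11.5 times lower and Cyp2b13 was 17.8 times lower. Log2 differences were −3.84, −2.53 and −1.88, of which those of Cyp2b10 and Cyp2b13 came to −0.86 and −0.39, under 2-fold, with a pseudocount of 1 FPKM. Past 2-fold, 3.28% of the 13194 genes were lower and 4.91% were higher, both Cyp2b genes that passed the filter were lower, and 23 genes lay below Cyp2b9 and 54 below Cyp2b10. Levels of these features with Mafg LNA on HFD were above those of Scr LNA on NCD, 4.78 times for Cyp2b9, 1.62 times for Cyp2b10 and 4.96 times for Cyp2b13. For Cyp2b10 this compares 0.0835 with 0.0516 FPKM, and its first and second features stood at 0.498 and 5.885 times. With no spread between livers, the order of these 2 groups cannot be judged for Cyp2b10.

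LincIRS2 LNA was set against Scr LNA in lean liver. The second feature of Cyp2b9 was 5.01 times and the third feature of Cyp2b10 5.65 times as high with LincIRS2 LNA, with log2 differences of 1.56 and 1.37, while Cyp2b13 was at 1.06 times its control level with a log2 difference of 0.0033. Past 2-fold, 2.17% of genes were higher and 2.42% were lower, both Cyp2b genes that passed the filter were higher, and 116 genes lay above Cyp2b9 and 152 above Cyp2b10. With a pseudocount of 1 FPKM these differences came to 0.43 for Cyp2b9 and 0.30 for Cyp2b10, under 2-fold. Lean livers with LincIRS2 LNA had 16.5 times less Cyp2b9 and 3.30 times less Cyp2b10 than obese control livers. Cyp2b13, next to 0 with LincIRS2 LNA, was 83.0 times lower there than in obese control livers. All 3 comparisons share control groups: Scr LNA on HFD serves diet and Mafg LNA, and Scr LNA on NCD serves diet and LincIRS2 LNA. The high value of Scr LNA on HFD therefore enters both the diet and the Mafg LNA difference of each gene.

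**Figure D2:**
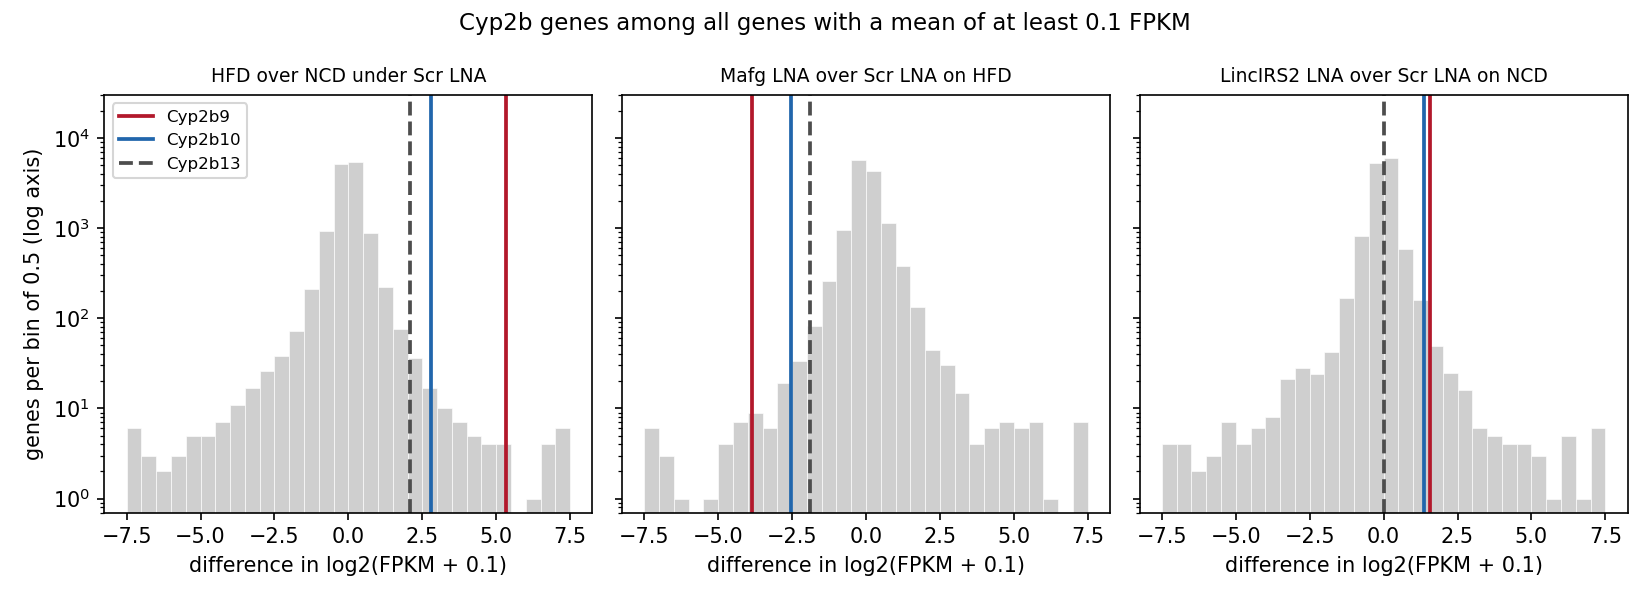
Number of genes (log axis) in bins of 0.5 of the difference in log2(FPKM + 0.1), for 13194 genes with a mean of at least 0.1 FPKM, with the outermost bins holding all genes beyond them. Lines mark the most abundant feature of Cyp2b9, Cyp2b10 and Cyp2b13 (dashed, as it did not pass the filter), at 5.34, 2.81 and 2.08 for diet.

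Neighbouring Cyp2 genes show how far the pattern extends along the cluster. Between chr7:25802475 and chr7:27158668 the tables list 16 Cyp2 genes with 24 features, of which 10 passed the filter. Cyp2a4, known in mouse for a female-biased steroid hydroxylase, had 0.0711 FPKM with Scr LNA on NCD, 1.76 with Scr LNA on HFD, 0.792 with Mafg LNA on HFD and 0.0705 with LincIRS2 LNA on NCD. Cyp2a22 had 0.0851, 1.86, 1.45 and 0.256 FPKM in this order. Both were thus low in lean control liver and highest in obese control liver, as were the 3 Cyp2b genes, but with Mafg LNA their log2 differences were −1.06 and −0.33, beside −3.84 for Cyp2b9.

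Other genes of the cluster had no main feature past 2-fold. The main feature of Cyp2a5, a coumarin hydroxylase whose sequence is close to Cyp2a4, had 33.9, 51.7, 62.1 and 29.1 FPKM in the same order of groups. How reads were divided between Cyp2a5 and the far lower Cyp2a4 was not tested. Cyp2a12, which encodes a steroid hydroxylase, had 15.0, 17.1, 12.6 and 15.7 FPKM. Cyp2f2 had 0.278, 0.165, 0.0369 and 0.320 FPKM and Cyp2g1 had 0.422, 0.334, 0.146 and 0.384 FPKM, with differences of −0.95 and −0.82 with Mafg LNA. Cyp2a5 and Cyp2a12 were far more abundant than any Cyp2b feature, and the minor feature of Cyp2a5 was lower on HFD (−1.13) and with LincIRS2 LNA (−1.16). The remaining Cyp2b genes, Cyp2b19 (at most 0.00909 FPKM) and Cyp2b23 (listed at 0 in all groups), and the pseudogenes Cyp2b26-ps and Cyp2b27-ps (at most 0.0120 FPKM) were at or near 0. An unmatched feature between Cyp2s1 and Cyp2b10, chr7:25848636-25848856, had 1.38, 5.34, 5.52 and 1.94 FPKM, higher in both HFD groups.

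**Figure D3:**
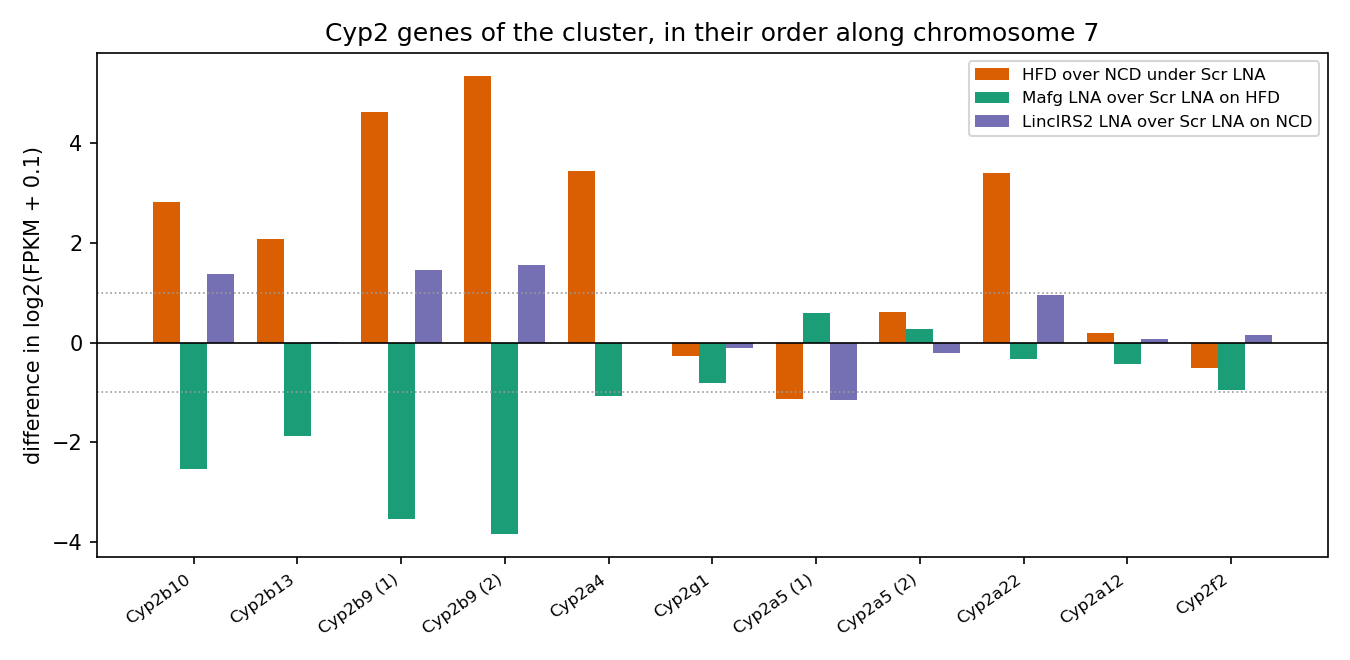
Difference in log2(FPKM + 0.1) of Cyp2 features in order along chromosome 7, for features with a mean of at least 0.1 FPKM and for Cyp2b13, with 1 bar per comparison and dotted lines at 2-fold. The bars of Cyp2b10, Cyp2b13 and both Cyp2b9 features point up for diet and down for Mafg LNA, as do those of Cyp2a4 and Cyp2a22.

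Receptors that act on Cyp2b genes lay within 2-fold of their controls. Nr1i3 (CAR) had 12.7 FPKM with Scr LNA on NCD, 21.4 with Scr LNA on HFD, 15.5 with Mafg LNA on HFD and 12.3 with LincIRS2 LNA on NCD, with log2 differences of 0.75, −0.46 and −0.04 in the 3 comparisons. Nr1i2 (PXR) had 2.15, 2.13, 2.68 and 2.32 FPKM, with differences of −0.01, 0.31 and 0.11. Neither was past 2-fold, although Nr1i3 had its highest level in the same group as Cyp2b9 and Cyp2b10. Among 15 receptors, partners and regulators of CAR and PXR over the filter (of 21 listed), 1 was past 2-fold, Egfr, whose signalling restrains CAR and which was lower on HFD (97.5 FPKM on NCD and 39.1 on HFD, −1.32). With Mafg LNA and with LincIRS2 LNA none of the 15 was, except that rescaling the groups to an equal total of matched features put 1 past 2-fold with LincIRS2 LNA. Over all genes 3% were past 2-fold higher and 3.09% lower on HFD. These shares were 4.91% and 3.28% with Mafg LNA, and 2.17% and 2.42% with LincIRS2 LNA. List medians were 0.10, −0.03 and −0.02 beside 0.0045, −0.026 and 0.0066 over all genes. With rescaling the list medians were 0.32, 0.06 and 0.15, beside 0.21, 0.11 and 0.16 for all compared features.

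Some target genes of CAR and PXR outside the Cyp2b subfamily were past 2-fold. Of 24 over the filter (of 34 listed), 5 were past 2-fold higher and 0 lower on HFD. With Mafg LNA 2 were higher and 4 lower, and with LincIRS2 LNA 1 was higher. Over all genes 3% were higher and 3.09% lower on HFD. These shares were 4.91% and 3.28% with Mafg LNA, and 2.17% and 2.42% with LincIRS2 LNA. Nothing is read from counts as small as 1 or 2 of 24. Gsta1, a glutathione transferase, was at 0.122 FPKM in lean control liver, 1.47 in obese control liver, 4.22 with Mafg LNA and 0.961 with LincIRS2 LNA, and so was higher, not lower, with Mafg LNA (1.46). Cyp2c39, a retinoid hydroxylase, was at 2.97, 4.01, 0.765 and 1.61 FPKM, lower with Mafg LNA by a log2 difference of −2.25. Cyp2c38 (1.59), Gsta2 (1.5) and Aldh1a1 (1.27), a retinaldehyde dehydrogenase, were higher on HFD, and Cyp2c29 (−1.35) and Cyp1a2 (−1.23) were lower with Mafg LNA. In contrast, Cyp3a11, the classical PXR target of mouse liver, was at 11.8, 9.63, 13.4 and 12.9 FPKM and not past 2-fold. List medians were 0.25, −0.33 and 0.10. With rescaling they were 0.50, −0.22 and 0.28, beside 0.21, 0.11 and 0.16 for all compared features. Rescaling also put 6 genes of the list past 2-fold higher on HFD. Most of these genes lay within 2-fold, while Cyp2b9 and Cyp2b10 did not with the pseudocount of 0.1 FPKM.

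Female-biased genes outside the Cyp2b subfamily were examined because Cyp2b9 and Cyp2b13 are female-predominant. Only 7 of 18 listed passed the filter, of which 4 were past 2-fold higher on HFD and 5 lower with Mafg LNA. With LincIRS2 LNA 1 was higher and 1 lower, and the list medians were 1.23, −1.12 and −0.07. Over all genes 3% were higher on HFD and 3.28% lower with Mafg LNA. With LincIRS2 LNA 2.17% of all genes were higher and 2.42% lower. Hao2, a hydroxyacid oxidase, had 0.0245 FPKM with Scr LNA on NCD, 1.33 with Scr LNA on HFD and 0.0883 with Mafg LNA on HFD, and was listed at 0 with LincIRS2 LNA. Cyp17a1, a steroid 17-hydroxylase, had 2.49, 5.99, 1.21 and 5.82 FPKM, and Prlr, the prolactin receptor, had 0.25, 0.766, 0.299 and 0.462 FPKM. Cyp17a1 and Prlr were thus highest in obese control liver and above lean control liver with LincIRS2 LNA, as were Cyp2b9 and Cyp2b10. Of the 7 genes, 2 had differences below 0 on HFD, Cyp2c40 and Cyp2c69, and both were highest in lean control liver. Cyp2c40 had 2.36, 1.82, 0.553 and 1.06 FPKM, and Cyp2c69 had 0.192, 0.0521, 0.0089 and 0.179 FPKM. With rescaling, 4 of the 7 were past 2-fold lower with Mafg LNA and 0 with LincIRS2 LNA, where the list median turned to 0.07. All compared features then had a median of 0.16, and with the median difference subtracted the list median was −0.07. A mean filter passes genes through the group in which they are high, and these counts are a description for that reason too.

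Male-biased liver genes tended to the other side. Of 12 over the filter (of 18 listed), 0 were past 2-fold higher and 6 lower on HFD. With Mafg LNA 5 were higher and 1 lower, and with LincIRS2 LNA 1 was higher and 1 lower. Over all genes 3% were higher and 3.09% lower on HFD. These shares were 4.91% and 3.28% with Mafg LNA, and 2.17% and 2.42% with LincIRS2 LNA. List medians were −1.16, 0.35 and −0.13. With rescaling 1 gene was past 2-fold higher on HFD. The list medians were then −0.91, 0.46 and 0.03, beside 0.21, 0.11 and 0.16 for all compared features. With the median difference subtracted, 2 were lower with Mafg LNA. Selenbp2, a selenium-binding protein gene, had 0.370, 0.0185, 0.401 and 0.110 FPKM, and Cyp4a12a, a fatty acid hydroxylase, had 0.830, 0.205, 0.605 and 0.650 FPKM in the order of groups used above. Mup20, which encodes a urinary pheromone protein, had 2218, 1170, 2936 and 1927 FPKM, and Gstp1 had 57.7, 21.6, 52.9 and 44.0 FPKM. Each of these 4 was lowest in the group in which Cyp2b9 was highest. Mup21 was an exception, with 371, 141, 63.9 and 348 FPKM and a difference of −1.14 with Mafg LNA. So were Moxd1, at 3.56 and 0.0162 FPKM on NCD and HFD under Scr LNA, 0.0143 with Mafg LNA and 10.9 with LincIRS2 LNA, and Hsd3b5, with 18.0, 6.07, 3.0 and 14.9 FPKM, neither of which was higher with Mafg LNA than with Scr LNA on HFD. Elovl3, with 0.125, 0.271, 0.178 and 0.1005 FPKM, and C4a, with 0.853, 1.59, 1.30 and 0.981 FPKM, were highest in obese control liver, as was Cyp2b9.

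Among 8 growth hormone signalling genes over the filter (of 10 listed), Jak2 and Socs2 were past 2-fold lower on HFD. Jak2 was higher with Mafg LNA and lower with LincIRS2 LNA. Over all genes 3.09% were lower on HFD, 4.91% higher with Mafg LNA and 2.42% lower with LincIRS2 LNA. Jak2, the kinase of the growth hormone receptor, had 0.992, 0.159, 0.534 and 0.0278 FPKM, values of 1 feature far under those of Ghr (18.9, 20.7, 13.9 and 19.6 FPKM). With rescaling Socs2 was no longer past 2-fold, and 1 gene was lower on HFD. Stat5b, the transcription factor downstream, had 4.31, 5.33, 5.10 and 5.42 FPKM. Of 6 sex chromosome genes listed, Xist was the only one analysed, listed at 0 in 3 groups and at 0.00687 FPKM with Mafg LNA on HFD.

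**Figure D4:**
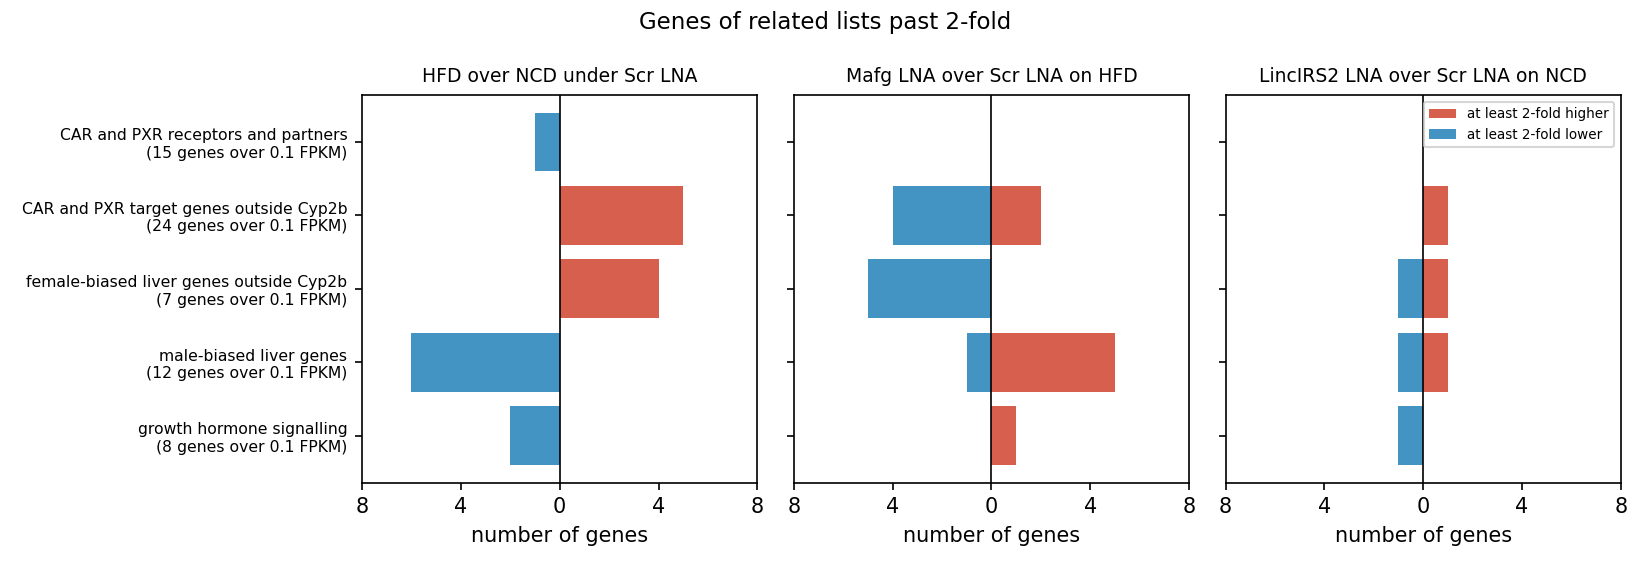
Number of genes at least 2-fold higher (right) or lower (left) on the log2(FPKM + 0.1) scale in each comparison, for 5 lists of genes with a mean of at least 0.1 FPKM. Female-biased genes show 4 higher on HFD and 5 lower with Mafg LNA, and male-biased genes 6 lower and 5 higher. Over all genes 3% were higher and 3.09% lower on HFD, and 4.91% were higher and 3.28% lower with Mafg LNA.

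Cell type markers were set beside these values, since in bulk tissue fewer cells of a type and less RNA per cell cannot be told apart. Over all genes 3% were past 2-fold higher and 3.09% lower on HFD. These shares were 4.91% and 3.28% with Mafg LNA, and 2.17% and 2.42% with LincIRS2 LNA. Cyp2b genes are expressed around the central vein, and of 9 pericentral genes over the filter (of 12 listed) 0 were past 2-fold on HFD or with LincIRS2 LNA and 1, Cyp1a2, was lower with Mafg LNA. Glul, the pericentral glutamine synthetase, had 4.39, 3.98, 5.35 and 3.8 FPKM, and Cyp2e1 had 141, 153, 154 and 129 FPKM. Neutrophil markers moved with the groups. All 5 over the filter (of 6 listed) were lower on HFD, higher with Mafg LNA and lower with LincIRS2 LNA, with a summed level of 20.8, 1.70, 6.86 and 1.54 FPKM in the order used above, and Camp was listed at 0 with LincIRS2 LNA. Erythroid markers summed to 2045, 1950, 901 and 2032 FPKM, and 3 of 4 were past 2-fold lower with Mafg LNA. Their part in the Cyp2b values was not tested. Endothelial and stellate cell markers had no gene past 2-fold in the 3 comparisons. Of 9 macrophage markers over the filter (of 10 listed), 9 had differences below 0 on HFD (8 with rescaling), 8 above 0 with Mafg LNA and 9 below 0 with LincIRS2 LNA, with medians of −0.70, 0.59 and −0.83 and a summed level of 52.1, 31.4, 43.3 and 28.5 FPKM. Past 2-fold, 1 was higher with Mafg LNA and 2 were lower with LincIRS2 LNA (1 with rescaling), and their part in the Cyp2b values was not tested. Of 9 periportal genes, 1 was higher on HFD and 2 with LincIRS2 LNA, Alb among them. Of 6 hepatocyte markers, Serpina1a was lower on HFD and higher with Mafg LNA (11.4, 0.502, 2.22 and 12.2 FPKM), and Alb was listed above 0 only with LincIRS2 LNA. Of 4 cholangiocyte markers 1 was lower with LincIRS2 LNA, and of 5 lymphocyte markers 1 was higher with Mafg LNA.

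Features with the pattern most like a Cyp2b feature over the 4 groups were found among 19919 candidates by the root mean square distance of centred log2(FPKM + 0.1). Candidates were features over the filter with an Ensembl match. Cyp2b features and features without a match were not compared. Those nearest to the third feature of Cyp2b10 belonged to Fastkd3 (distance 0.16), Gm12718 (0.17), Dpagt1 (0.23), Cndp1 (0.24) and Col7a1 (0.27). The feature of Fastkd3 had 0.0215, 0.527, 0.0342 and 0.167 FPKM, so that, like Cyp2b10, it was highest in obese control liver and next highest with LincIRS2 LNA. No candidate came as near to Cyp2b9. The nearest to its first feature was Gm11407 (0.42), followed by Gm24476, AC154636.1, Gm24303 and Scarna3a (0.53 to 0.55), and the nearest to its second were Gm22581, Gm23413, Scarna3a, Gm44349 and Gm24303 (0.63 to 0.64). These are pseudogenes and small RNA genes, and all were listed at 0 with Scr LNA on NCD and with Mafg LNA on HFD. With 4 values per feature, this likeness is a description.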

How the data were processed

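Total RNA-Seq of 24 livers (strand-specific libraries, paired reads of 76 bases by the labels, which the study gives as slightly shorter) was processed by the authors, who trimmed with flexbar, removed rRNA reads (Bowtie2 2.2.9), mapped the rest to the mm10 genome, GRCm38, by STAR 2.6.0c, and assembled and quantified transcripts with the Cufflinks 2.2.1 suite, Cuffdiff included. The deposited FPKM values are 1 per feature and group, pooled by the authors over livers, and groups present in more than 1 table did not differ between tables. The deposited columns of fold change, statistic, p-value, q-value and significance hold the authors' own comparisons and were not used. Per-liver values were not analysed, so pooling hides the spread between livers and 1 outlying liver could set a value. Livers were grouped by their labels.

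Groups were compared as differences of log2(FPKM + 0.1), for the feature of highest mean per gene, among features with a mean of at least 0.1 FPKM. Members were all features of the 3 genes, neighbours all Cyp2 features of the cluster, and lists (16) were described by counts past 2-fold and medians, naming up to 4 genes of largest difference, Nr1i3, Nr1i2 and sex chromosome genes. Other genes were named after their values were seen. The 5 nearest features were named per member. Members and lists were chosen with earlier results of these data known. Strand was inferred from feature numbers, and whether it was assigned correctly upstream was not tested. The difference and count steps were tested on simulated data, with 4-fold changes planted without noise in features of higher mean than any Cyp2b feature. Values as low as those of the Cyp2b features were not covered. Alternatives were 2 other pseudocounts, summed features, 2 scalings, 2 filters and a 4-fold limit. Alignments used Biopython 1.88 and tables pandas 2.3.3.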

Additional observations from a re-analysis of the deposited data

How the results depend on the processing

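No paired analysis was possible because the tables hold 1 pooled value per group, and for the same reason no liver could be left out. Of 45 alternatives for the 9 member differences, 30 stayed within 1.5-fold, 15 moved further and 0 reversed a difference past 2-fold. All 15 came from the pseudocount, which by construction weighs most on low values. A pseudocount cannot turn the sign of a difference, and summing changes nothing for Cyp2b13, which has 1 feature. The 2 scalings shift the median feature by far less than 1.5-fold, so this tally says little about stability. The difference of Cyp2b13 with LincIRS2 LNA, 0.0033, was −0.0053 with the median difference subtracted. With 0.01 FPKM in place of 0.1, the diet difference was 6.23 for Cyp2b9, 3.98 for Cyp2b10 and 4.65 for Cyp2b13, the Mafg LNA difference −3.38 for Cyp2b10 and −3.59 for Cyp2b13, and the LincIRS2 LNA difference 2.21 for Cyp2b9 and 2.29 for Cyp2b10. With 1 FPKM, the diet differences were 3.0, 0.90 and 0.41 and the Mafg LNA differences −2.60, −0.86 and −0.39 for Cyp2b9, Cyp2b10 and Cyp2b13, and the LincIRS2 LNA differences 0.43 for Cyp2b9 and 0.30 for Cyp2b10. Under this setting only the diet and Mafg LNA differences of Cyp2b9 were past 2-fold.

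Features past 2-fold numbered 2180 for diet, 3187 for Mafg LNA and 1710 for LincIRS2 LNA of 26805. In the same order they were 349, 446 and 225 with a mean of at least 1 FPKM, 4089, 5303 and 3487 with a pseudocount of 0.01 FPKM, 309, 348 and 214 with 1 FPKM, and 461, 524 and 416 past 4-fold, while the other 9 counts stayed within 1.5 times. Rescaling to an equal total of matched features moved the median feature to 0.21, 0.11 and 0.16, and the share of higher features among those past 2-fold from 51.5% to 67.2% for diet and from 48.9% to 59.8% for LincIRS2 LNA. The share with Mafg LNA was 66.3%, and 46.2% with a mean of at least 1 FPKM. All values rest on 1 pooled estimate per group.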
